A study of Homo sapiens with 4 samples.

Results

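The 41 genes described here encode receptors for glutamate, GABA and glycine. They were taken as a fixed list of autosomal genes, each by its annotated span on hg19 (GENCODE release 44 mapped to that build), and all 41 were found and measured among 18764 measured autosomal protein-coding genes. The list holds 3 AMPA, 5 kainate, 7 NMDA and 1 delta receptor gene, 7 metabotropic glutamate receptor genes, 10 GABA-A, 3 GABA rho and 2 GABA-B receptor genes, and 3 glycine receptor genes. The list is not set by any measured value, but it was chosen with earlier results of these data known.

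The study used ChIP-seq, in which antibody-bound chromatin is sequenced, to map macroH2A1 in IMR90, a line of untransformed human fetal lung fibroblasts, grown untreated in serum-containing medium. It has 4 samples, namely 2 macroH2A1 ChIP replicates, described by the submitters as biological, and 2 matching inputs. Each ChIP replicate had a deposited segmentation of the genome that gives every segment the log2 of its ChIP to input ratio. The inputs enter only through that ratio, there is no treated or mutant group, and read depth is unknown, so the error given is the SD of the 2 replicates.

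MacroH2A1 is a variant of histone H2A with a large additional globular macro domain. It is known from the inactive X chromosome and from broad domains of silent chromatin. Glutamate opens ion channels of the AMPA, kainate and NMDA type and also acts through metabotropic receptors that couple to G proteins. GABA and glycine open pentameric chloride channels, and GABA also acts through the G protein-coupled GABA-B receptor. These receptors carry fast and slow signals between neurons, and a lung fibroblast is not their main site of use.

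MacroH2A1 lay at intermediate levels over most of the receptor genes, with a minority in enriched domains. The mean log2 ratio over a gene had a median of -0.28 over the 41 receptor genes and of -0.90 over all measured autosomal genes. In the single replicates the medians were -0.29 and -0.33 for the receptor genes, against -0.96 and -0.81 for all genes. The receptor genes ran from -1.28 at GABBR1 to 1.13 at GRIN1. None of the 41 fell in the lowest quartile of all genes (a log2 ratio under -1.85), 2 fell in the next, 23 in the one above it and 16 in the highest (over -0.03). Of the 6458 measured autosomal genes of at least 50 kb, 16.7% lay in the lowest quartile and 22.5% in the highest. The receptor genes were long, with a median span of 169 kb against 28.3 kb for all genes. The median log2 ratio was -0.79 for all genes of at least 50 kb. In the plot of the distribution of gene means the receptor genes leave the most depleted bins empty.

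**Figure D1:**
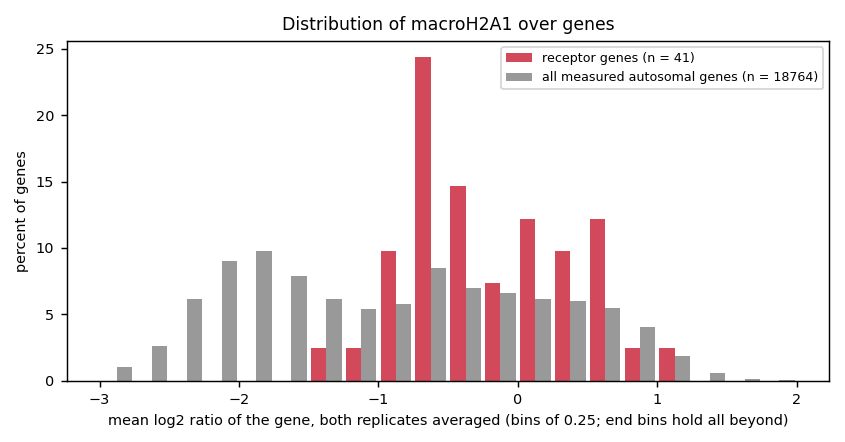
Percent of genes (vertical axis) by mean log2 ratio of macroH2A1 ChIP over input (horizontal axis, bins of 0.25), for the 41 receptor genes in red and all 18764 measured autosomal genes in grey. The lowest receptor gene is at -1.28, whereas 25.0% of all genes lie under -1.85.

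A segment counted as enriched with a log2 ratio above 0 and a −log10 p of 2 or more, and a gene was called covered where at least 50% of its assayed bases lay in enriched segments of both replicates. By this rule 10 of the 41 receptor genes were covered (24.4%), against 17.4% of all measured autosomal genes. Among genes of at least 50 kb, 8 of 35 receptor genes were covered (22.9%), against 15.4%. No covered base was found in 22 of the 41, or 53.7%, against 71.1% of all genes, and the other 9 were covered in part. The mean log2 ratio was above 0 in both replicates in 15 receptor genes (36.6% of 41), where the share of all genes was 20.8%. It was below 0 in both in 25, where the share of all genes was 71.8%, and GRIK4 had opposite signs. The list has no test of its own, since the series holds 1 group of samples, so these shares are a description. With a log2 ratio over 0.5 required, only 4 receptor genes were covered (GRIK5, GRIN1, GABRA4 and GABRB1), and a share of at least 80% was reached by 4 (GABRD, GABRR3, GABRA4 and GABRB1). The shares of all genes were then 10.1% and 13.1%. Under both of these stricter rules the share of receptor genes, 4 of 41, was not above that of all genes.

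**Figure D2:**
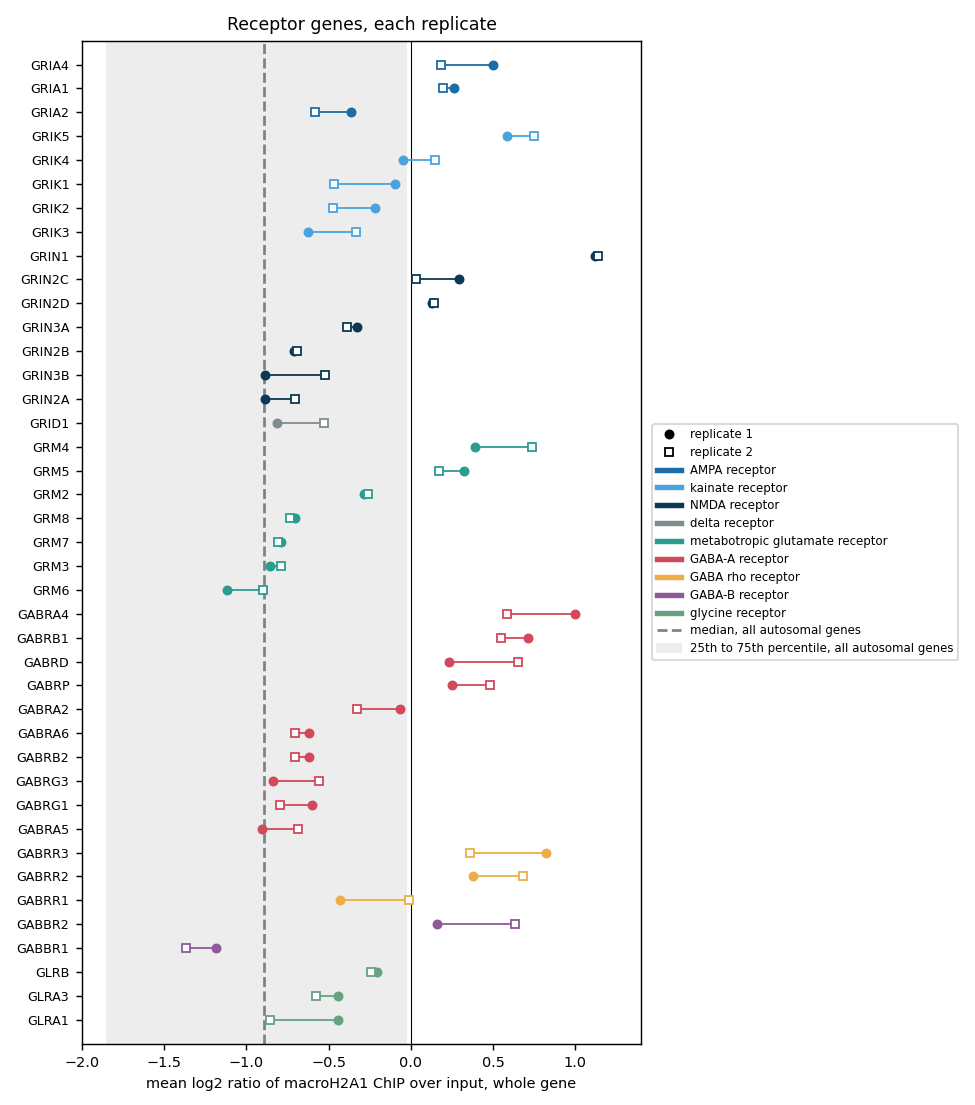
Mean log2 ratio over each receptor gene in replicate 1 (filled circles) and replicate 2 (open squares), ordered by receptor class. The dashed line is the median of all measured autosomal genes (-0.90) and the grey band their 25th to 75th percentile (-1.85 to -0.03); 16 receptor genes have a mean above that band.

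Start sites did not follow the rest of the gene in every case. In the 5 kb centred on the annotated start, 12 of the 41 receptor genes were covered, against 19.6% of all genes, and the median log2 ratio there was -0.29 for receptor genes and -0.73 for all genes. The annotated start is the outer end of the gene record and need not be the start used in these cells. The 5-kb window includes sequence upstream of the gene. It was higher than the remainder of the gene in both replicates in 14 receptor genes (34.1%) and lower in both in 14 (34.1%). Over 17484 genes with sequence beyond the window the shares were 35.2% and 14.2%. The 250 bases before the start are shown for the genes with the highest and the lowest start value among glutamate receptor genes and among GABA and glycine receptor genes, since these are the extremes of the start signal. They are read 5′ to 3′ on the strand of the gene from GRCh37, and capitals mark the CG dinucleotides.
GRIN3B: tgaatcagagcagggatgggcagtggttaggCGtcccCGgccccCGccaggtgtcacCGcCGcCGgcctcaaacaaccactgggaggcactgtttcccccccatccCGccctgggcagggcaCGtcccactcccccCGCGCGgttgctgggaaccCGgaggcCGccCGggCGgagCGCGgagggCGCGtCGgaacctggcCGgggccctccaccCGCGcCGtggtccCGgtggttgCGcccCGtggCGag
GRM2: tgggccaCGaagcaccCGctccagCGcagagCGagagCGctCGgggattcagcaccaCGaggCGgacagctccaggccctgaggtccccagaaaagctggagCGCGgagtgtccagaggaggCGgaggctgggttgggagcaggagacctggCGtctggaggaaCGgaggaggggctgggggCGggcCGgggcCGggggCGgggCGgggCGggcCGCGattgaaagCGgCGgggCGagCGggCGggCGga
GABRA4: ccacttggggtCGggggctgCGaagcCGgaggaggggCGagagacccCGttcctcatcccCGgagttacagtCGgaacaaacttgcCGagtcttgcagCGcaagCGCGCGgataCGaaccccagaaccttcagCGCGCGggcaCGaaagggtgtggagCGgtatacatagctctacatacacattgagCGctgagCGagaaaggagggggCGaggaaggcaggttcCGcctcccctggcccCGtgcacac
GABBR1: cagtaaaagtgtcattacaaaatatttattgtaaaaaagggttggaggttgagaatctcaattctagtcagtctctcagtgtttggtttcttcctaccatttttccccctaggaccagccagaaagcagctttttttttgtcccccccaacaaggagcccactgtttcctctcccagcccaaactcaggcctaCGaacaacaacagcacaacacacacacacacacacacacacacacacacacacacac
The sequence of GRIN3B lies at chr19:1000168-1000417 (plus strand) and that of GRM2 at chr3:51740834-51741083 (plus strand). The sequence of GABRA4 lies at chr4:46995599-46995848 (minus strand) and that of GABBR1 at chr6:29601754-29602003 (minus strand). GRIN3B and GRM2 have nearly the same CpG content, 28 and 27 CG in 250 bases with GC contents of 75.2% and 74.4%, and stand at opposite ends of the start values. GABRA4 holds 23 CG and GABBR1 holds 1.

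The 5-kb window at the start of GRIN3B, which encodes a glycine-binding NMDA receptor subunit, had log2 ratios of 0.90 and 1.82 (1.36 ± 0.65, SD, n = 2). The rest of this short gene lay at -1.35 ± 0.01, so the high values sat around its start. In the window 39.0% of bases were covered in both replicates, and these lay upstream of the gene. In replicate 2 an enriched segment ended 2.36 kb after the start, and in replicate 1 a segment at 0.36, not called enriched, ran to 4.25 kb. GRM2, a metabotropic receptor that lowers transmitter release, showed the reverse. Its start window was at -1.54 and -1.23 (-1.39 ± 0.22), and the rest of the gene at -0.16 ± 0.02. The depleted segments, at -2.27 and -1.87, reached only 0.78 kb into GRM2 in replicate 1 and 0.63 kb in replicate 2. Most of the low stretch in that window thus lay upstream of the gene.

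GRID1, a delta-type receptor subunit, was enriched in both replicates at its start and in replicate 1 alone at 2 short segments further in. It had 0.33 and 0.55 (0.44 ± 0.15) in the start window and -0.67 ± 0.20 beyond it. The enriched segment ended 5.33 kb into the gene in replicate 1 and 7.90 kb in replicate 2, of a span of 767 kb. Only 66.2% of that window was assayed. GLRB, the beta subunit that anchors glycine receptors, also had a higher start window, at 0.22 ± 0.06 against -0.22 ± 0.02 in the rest. Inside GLRB the first segments were at -0.17 and -0.24 in the 2 replicates, so the positive values lay upstream of the gene. In 3 receptor genes the replicate means gave a negative start window and a positive remainder. GABRR2, a rho subunit, was at -1.08 ± 0.48 at the start and 0.59 ± 0.24 in the rest. GRIK5, a kainate subunit, was at -0.21 ± 0.14 and 0.69 ± 0.12, and the first segments inside it were at 0.03 and -0.11. GRIN2C, an NMDA subunit, was at -0.77 ± 1.10 and 0.25 ± 0.03, and its replicates differed widely at the start (0.01 and -1.54).

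**Figure D3:**
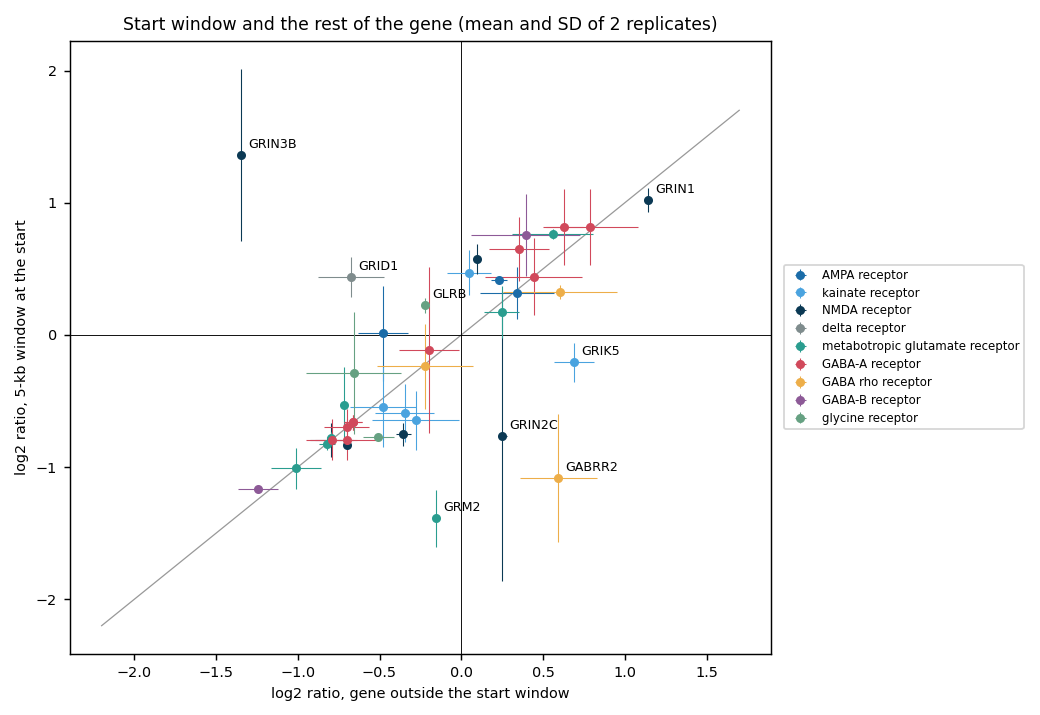
Log2 ratio in the 5-kb window at the start (vertical axis) against that of the rest of the gene (horizontal axis) for the 41 receptor genes, with bars of 1 SD over the 2 replicates and the line of equality in grey. GRIN3B and GRID1 stand above the line, and GRM2, GRIK5, GRIN2C and GABRR2 below it.

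A 300-base window, 250 before to 50 after the start, was called CpG-rich where the observed over expected ratio of CG dinucleotides was at least 0.6. This held for 22 of 41 receptor genes (53.7%), against 59.2% of all genes. Starts with a CpG-rich window were covered in 5 of 22 receptor genes (22.7%), against 11.5% of all genes with such a window. Starts with a CpG-poor window were covered in 7 of 19 (36.8%), against 31.4%. Across the 41 receptor genes the start value and the CpG ratio were related with r = 0.07 (Pearson) and rho = 0.11 (Spearman), and across 18704 genes -0.37 and -0.36. Genes that share a segment or a start region are not independent points in these correlations.

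Of the AMPA receptor genes, which encode the channels of fast excitatory transmission, 2 of 3 were covered. GRIA1 (chr5:152869175-153193429) had log2 ratios of 0.27 and 0.20 in the 2 replicates (0.23 ± 0.05, SD, n = 2), with 60.2% of its length covered. The enrichment lay in the first part of the gene, at 1.02 and 0.90 in the strongest segments, and gave way to -0.50 and -0.44 at the end. GRIA4 (chr11:105480262-105852817) was at 0.50 and 0.18 (0.34 ± 0.23) with 64.1% covered, and its low stretch was in the middle: 0.12 in replicate 1 and -0.23 in replicate 2, over 111 and 112 kb. GRIA2, the subunit that sets calcium permeability, had no base covered in both replicates, at -0.36 and -0.58. Replicate 1 alone was enriched over the first 45.6 kb of GRIA2 (0.27), where replicate 2 was at -0.24.

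Kainate receptor subunits form channels that tune excitability and transmitter release. GRIK5 (chr19:42502473-42574358) was covered over 78.7% of its length at 0.58 and 0.75 (0.66 ± 0.12), and its enriched part runs from 15.3 kb after the start in replicate 1, and from a slightly earlier point in replicate 2, to the end. GRIK4 was a mosaic at -0.05 and 0.14, with 18 segments in replicate 1 and 3 in replicate 2, and 18.1% covered. GRIK4 was enriched at both ends in both replicates, with a segment at 2.06 in replicate 1 that lay 27.7 to 34.4 kb from the start. GRIK1 (chr21:30909254-31312351) had 65.6% of its length enriched in replicate 1 and 0 in replicate 2, the largest difference between replicates among the 41. The values there were 0.13 in replicate 1 and -0.27 in replicate 2, so the middle of GRIK1 was higher than its ends in both, and the call differed. GRIK2, with a span of 1119 kb, and GRIK3 had nothing covered in both replicates, at -0.35 ± 0.18 and -0.48 ± 0.21.

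NMDA receptors need glutamate and a co-agonist, and their subunits ranged the most widely among the glutamate receptor genes. GRIN1, the obligatory subunit (chr9:140032798-140063208), had the highest value of all 41 genes, at 1.12 and 1.14 (1.13 ± 0.01), with 67.5% covered. Its central segment reached 1.52 over 14.4 kb in replicate 1 and 2.12 over 16.0 kb in replicate 2. The replicates differed near the end of GRIN1, where a stretch of 5.59 kb was at -1.35 in replicate 2. Replicate 1 was at 0.81 there, and the enriched shares of the gene were 93.4% and 74.1%. The 50 kb on either side of GRIN1 were depleted on average, at -1.47 ± 0.15 upstream and -2.16 ± 0.08 downstream. In both replicates enriched segments nevertheless began upstream of GRIN1 and ended past it, and the nearest 5 kb upstream were at 1.02. The long subunit genes GRIN2A (chr16:9847261-10276785; -0.89 and -0.70) and GRIN2B (-0.71 and -0.69) had no enriched base in either replicate. GRIN2A sat inside 1 segment in each replicate, of 1003 kb and 1478 kb.

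GRIN2D, GRIN2C and GRIN3A, which encode further NMDA subunits, were covered in part. GRIN2D, at 0.13 and 0.14, was enriched over its first 7.83 kb in replicate 1 and 15.2 kb in replicate 2. GRIN2C (0.30 and 0.03) had a peak of 1.02 and 1.10 that began 0.96 and 2.00 kb after its start and spanned 6.90 and 6.36 kb. GRIN3A (-0.33 and -0.39) had an enriched segment near its far end, of 0.77 over 24.3 kb and 0.97 over 22.0 kb. GRIN3B, whose start window was high, had no base of the gene covered in both replicates. It was at -3.29 and -3.75 in its last segments, and its gene mean was -0.70 ± 0.26.

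The metabotropic glutamate receptor genes divided into 2 that were positive and 5 that were negative in both replicates. GRM4 (chr6:33986420-34123399), an inhibitory presynaptic receptor, was at 0.39 and 0.74 (0.56 ± 0.24) and was covered over 55.8% in replicate 1 and 100% in replicate 2. GRM5 (chr11:88237744-88799150), which acts through phospholipase C, was at 0.32 and 0.17 (0.25 ± 0.11), enriched over 76.7% in replicate 1 and 24.9% in replicate 2. In both replicates the end of GRM5 carried its strongest segment, 0.77 and 0.57. GRM3, GRM7 and GRM8 had no enriched base, at -0.82 ± 0.05, -0.80 ± 0.02 and -0.72 ± 0.02, and their replicates were close. GRM7 has a span of 972 kb and lay within 1 segment of 2586 kb in replicate 2. GRM6 (chr5:178404588-178423207), the receptor of retinal ON bipolar cells, was the lowest at -1.12 and -0.90. GRM2 was at -0.27 ± 0.02.

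Of the 10 GABA-A subunit genes, 3 were covered, 2 were covered in part and 5 had no covered base. GABRD (chr1:1950768-1962197), the delta subunit of receptors outside synapses, was covered over its whole length, at 0.23 and 0.65 (0.44 ± 0.29). It lay inside 1 enriched segment in each replicate, of 120 kb and 278 kb, so its value is that of a region much longer than the gene. GABRP, a subunit found largely outside the brain (chr5:170190354-170241051), was at 0.25 and 0.48, enriched over 44.7% in replicate 1 and 100% in replicate 2. The remaining GABA-A genes sit in 3 gene clusters.

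Neighbouring GABA-A subunit genes on chromosome 4 differed from each other. The cluster holds GABRG1, GABRA2, GABRA4 and GABRB1 within 1391 kb (chr4:46037786-47428464). GABRA4 was at 1.00 and 0.58 (0.79 ± 0.29) with 94.9% covered, and GABRB1 at 0.71 and 0.55 (0.63 ± 0.11) with 91.1% covered. Both belong to an enriched domain, counted up to its first unassayed gap of over 1 kb, of 375 kb, which includes their divergent starts, which lie 141 bases apart. Near the far end of GABRA4 both replicates had a step 70.9 kb from the start of that gene. Beyond it the log2 ratio was 0.52 in replicate 1, still enriched, and 0.07 in replicate 2, not enriched. At the other side a step was placed 395 kb and 394 kb after the start of GABRB1, and the values beyond it were 0.18 and -0.06.

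GABRG1, at the opposite end of the cluster, had no enriched base, at -0.60 and -0.80 (-0.70 ± 0.14). GABRA2 was split, at -0.06 and -0.33 over the gene. In replicate 1 an enriched stretch of 0.33 to 1.43 ended 95.2 kb into GABRA2, after which the log2 ratio was -0.60. In replicate 2 an enriched segment of 0.65 ended 94.3 kb into the gene, after which the ratio was -0.80. The sequence between GABRA2 and GABRA4, which contains the unrelated gene COX7B2, was at -0.30 ± 0.16. The replicates differed over the first part of GABRA2, which was at 0.33 in replicate 1 and -0.56 in replicate 2.

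**Figure D4:**
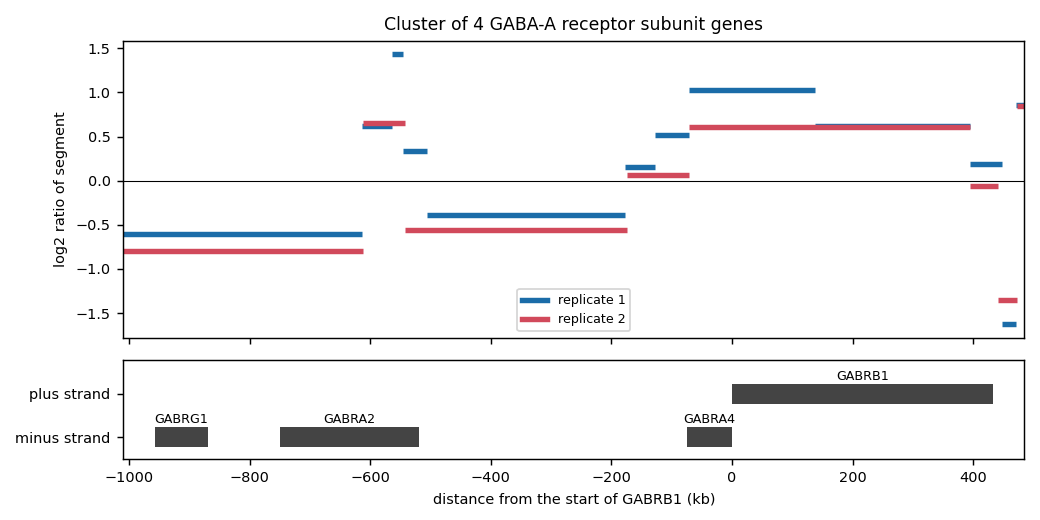
Log2 ratio of each segment (vertical axis) against distance from the start of GABRB1 in kb (horizontal axis) across the chromosome 4 cluster in replicate 1 (blue) and replicate 2 (red), with the 4 receptor genes by strand below. Values are above 0 in both replicates over most of GABRA4 and GABRB1 and over part of GABRA2, and below 0 over GABRG1.

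The GABA-A clusters on chromosomes 5 and 15 had no enriched base in either replicate. GABRB2 and GABRA6 on chromosome 5 (chr5:160715436-161129599) overlap by 1.98 kb and lay inside 1 segment in each replicate, of 2239 kb and 3011 kb, so they share the values of -0.62 and -0.70. GABRA5 and GABRG3 on chromosome 15 (chr15:27112058-27787130) rested on 2 segments in each replicate. GABRA5 was at -0.90 and -0.68 and GABRG3 at -0.84 and -0.56. A step within GABRG3 was placed 373 kb from its start in replicate 1 and 376 kb in replicate 2, beyond which the values were -0.72 and -0.31. This chromosome 15 region is known for imprinting, and the files do not separate the parental copies.

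The rho subunit genes, which form GABA-gated channels known best from the retina, included the highest segment under any of the 41 genes. GABRR2 (chr6:89964183-90025018) had segments of 2.98 over 3.09 kb in replicate 1 and of 2.79 over 8.18 kb in replicate 2, which began 13.8 kb and 13.5 kb from the start. Over the whole gene GABRR2 was at 0.38 and 0.68 with 32.4% covered. Its neighbour GABRR1, 23.2 kb away, was at -0.43 and -0.01 and had no base covered in both replicates. GABRR3 on chromosome 3 (chr3:97703946-97754159) was covered over its whole length, at 0.82 and 0.36 (0.59 ± 0.33). Replicate 1 resolved a peak of 1.58 inside GABRR3, where replicate 2 had 1 segment at 0.36.

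The 2 subunits of the GABA-B receptor, which work as a pair, lay far apart. GABBR2 (chr9:101050391-101471217), the subunit that couples to G proteins, was at 0.16 and 0.63 (0.39 ± 0.33) with 53.3% covered, and in single replicates 56.6% and 96.7% were enriched. GABBR1 (chr6:29523406-29601753), the subunit that binds GABA, had the lowest value of the 41, at -1.19 and -1.36 (-1.28 ± 0.13). Its first 40.8 kb in replicate 1, and nearly the same stretch in replicate 2, were the depleted part, at -2.16 and -2.43. The remainder of the GABBR1 span was less depleted, and its last 13.9 kb were enriched at 0.48 in replicate 1 alone. The annotated span of GABBR1 overlaps other coding genes, by 2.1, 4.1 and 5.4 kb. Its gene mean is therefore that of the whole span and not of GABBR1 sequence alone.

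The glycine receptor genes had no base covered in both replicates. GLRA1 (chr5:151202074-151304412), the adult alpha subunit, was at -0.44 and -0.86 (-0.65 ± 0.29), with an enriched stretch of 14.5 kb in replicate 1 alone. GLRA3 was at -0.45 and -0.58. GLRB (chr4:157997277-158093242) was at -0.21 and -0.24, and the 50 kb upstream of it were at 0.77 ± 0.07. GLRB lies 32.1 kb from GRIA2, and the sequence between them was at 0.20 in replicate 1 and -0.24 in replicate 2.

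The 50 kb upstream had the sign of the gene mean in 29 of 41 receptor genes (70.7%), against 67.1% of all genes, and the 50 kb downstream in 30 (73.2%), against 70.6%. Both flanks did in 26 (63.4%), against 50.6% of all genes. In 8 of the 16 receptor genes with a mean above 0 (50.0%) the gene stood between 2 negative flanks, against 19.5% of the 4544 such genes in all. This difference was not tested. The 8 were GRIK4, GRIK5, GRIN1, GRIN2C, GRIN2D, GABRR2, GABRR3 and GABBR2. Signs here are those of the mean of the 2 replicates, and some of these means were near 0. Examples are GRIK4 itself (0.05 ± 0.13), the 50 kb downstream of GRIK5 (-0.08 ± 0.20) and the 50 kb upstream of GRIN2C (-0.06 ± 0.08). The plot along the genes shows runs of even pale blue in GRIN2A, GRM3, GRM7, GABRA5, GABRA6, GABRB2 and GABRG1. In replicate 1, 8 of the 41 genes lay inside 1 segment, and in replicate 2, 15 did. The 41 genes rested on 139 segments in replicate 1 and 85 in replicate 2.

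**Figure D5:**
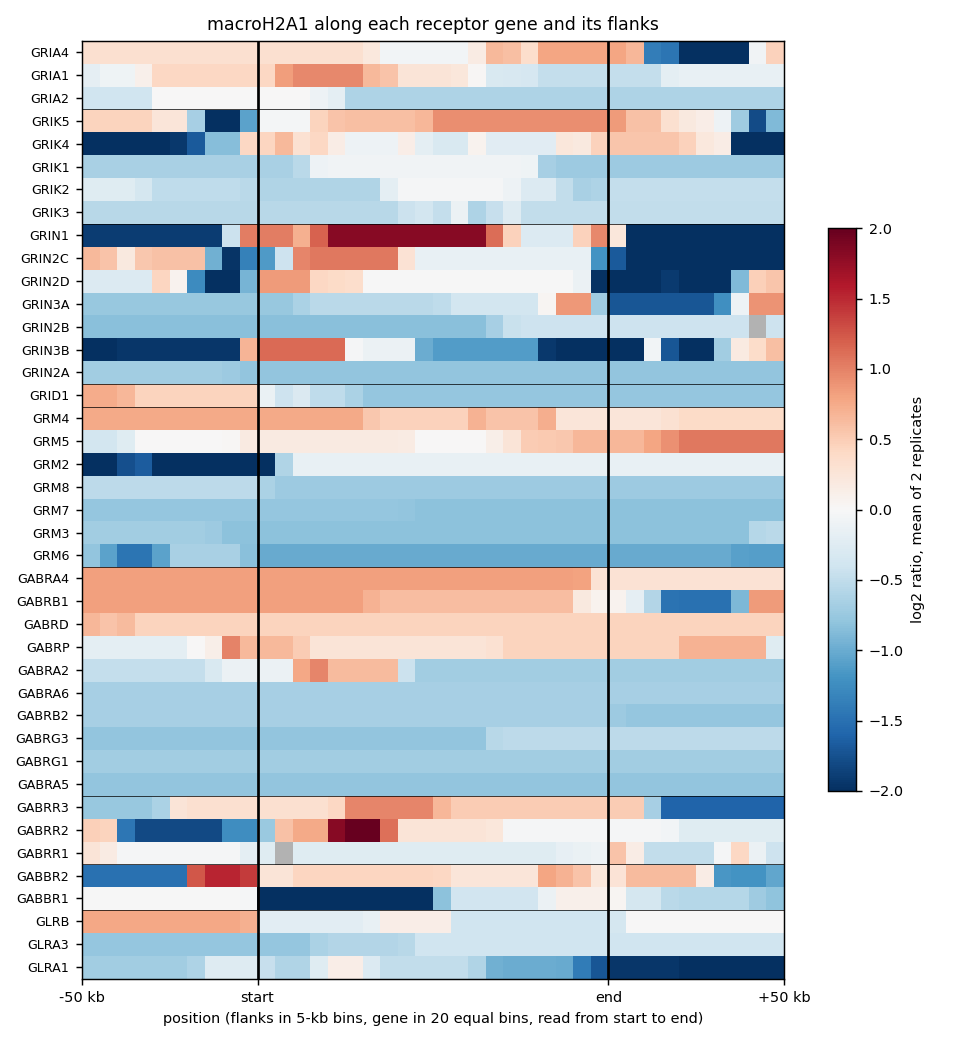
Log2 ratio, mean of the 2 replicates (red above 0, blue below, colours end at -2 and 2, grey not assayed), along each receptor gene in 20 equal bins from start to end and in 5-kb bins over the 50 kb on each side. Inside the genes, leaving the flanks aside, GRIN1 and GABRR2 show the darkest red, and the first part of GABBR1 the longest run of dark blue.

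The replicates ranked the receptor genes alike. Between replicates, Pearson's r was 0.91 and Spearman's rho 0.88 across the 41 genes, and 0.91 and 0.91 across all measured genes. The median SD of a gene's log2 ratio was 0.15 for receptor genes and 0.16 for all genes. The enriched share differed between replicates by over 20 percentage points in 9 receptor genes (22.0%), against 12.3% of all genes. Replicate 1 was cut into shorter segments, with a median of 27.1 kb against 53.0 kb in replicate 2. Gene length (as its logarithm) and the gene mean were related with r = -0.21 (Pearson) and rho = -0.25 (Spearman) across the 41, and 0.01 and 0.03 across all genes. For the GC content of the 41 genes and their means, r was 0.24 and rho 0.15. Members that share a segment are not independent points here either.

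Of the other genes of these transmitter systems, transporters clear and package the transmitters. Of 15 transporter genes 7 were covered (46.7%) and 5 had no covered base, with a median log2 ratio of 0.24. SLC1A2, the main glial glutamate transporter, was at 1.09 ± 0.12 (SD, n = 2) and SLC1A7 at 0.96 ± 0.21, whereas SLC1A6 was at -0.55 ± 0.22 and the glycine transporter SLC6A9 at -1.24 ± 0.13. Of 11 enzymes that make or break down the transmitters, 1 was covered, GLDC of the glycine cleavage system (0.59 ± 0.11). GAD1, which makes GABA, was next at 0.19 ± 0.22 with nothing covered. GLUD1 and SHMT2, mitochondrial enzymes used by most cells, were lowest at -1.67 ± 0.04 and -1.74 ± 0.07.

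Of 26 auxiliary and scaffold genes 6 were covered, with a median of -0.46. CACNG2, the AMPA receptor partner stargazin, was at 0.78 ± 0.16 and CACNG5 at 0.65 ± 0.04, and the lowest were NLGN2 at -2.35 ± 0.04 and DLG4, the scaffold PSD-95, at -2.58 ± 0.01. Of the listed receptors for acetylcholine, dopamine and serotonin, 16 of 38 were covered (42.1%), with a median of -0.09. HTR1D (1.29 ± 0.28) and CHRNB3 (1.21 ± 0.35) were highest, and CHRNG (-1.92 ± 0.07) and CHRNA10 (-2.14 ± 0.35) lowest. The share of all measured autosomal genes for these 4 lists is the 17.4% given above, and the difference between any of these lists and the 41 receptor genes was not tested.

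The data hold no expression, so marker genes of cell types show only where macroH2A1 lies at such genes. None of 11 fibroblast marker genes was covered, against 17.4% of all measured autosomal genes, a share that also stands beside the neuronal and astrocyte counts here. None of these lists was tested. The fibroblast median log2 ratio was -2.29. The lowest were COL1A1, a main collagen gene, at -3.13 ± 0.30 and VIM, an intermediate filament gene, at -2.45 ± 0.28. S100A4 at 0.33 ± 0.39 and POSTN at 0.06 ± 0.44 were the highest of the list. Of 8 neuronal marker genes 7 were measured, none was covered, and the median was -0.02. SNAP25 (0.39 ± 0.13) and STMN2 (0.03 ± 0.15) were highest and ELAVL4 (-0.79 ± 0.10) and TUBB3 (-1.92 ± 0.22) lowest. Of 4 astrocyte marker genes 2 were covered, GFAP at 0.70 ± 0.36 and S100B at 0.70 ± 0.42, with ALDH1L1 at 0.30 ± 0.30 and AQP4 at -0.79 ± 0.02.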

How the data were processed

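Per the labels, chromatin of IMR90 cells was crosslinked, sheared and precipitated with an antibody to macroH2A1. The submitters' processing notes name CASAVA 1.7 and hg19; the sources used here do not give the aligner, the segmentation program or the scaling of ChIP to input. The authors deposited 1 segmentation per ChIP replicate, which lists for each segment the log2 of ChIP over input and a −log10 p-value. The base of the logarithm was inferred: taken as log2 the ratios average 0.99 and 0.98 over autosomal bases, and taken as natural logs 1.11 and 1.09. No read counts are given, so depth and counting error are unknown, and the values are relative within a library. Each segment carries 1 averaged value (median segment lengths 27.1 and 53.0 kb), so features inside a segment are not seen.

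Segments were intersected with gene spans (GENCODE release 44 on GRCh37, the build of the files; Python 3.11.15, NumPy 2.4.6, SciPy 1.17.1). Only bases inside blocks of both replicates were used, and a gene was measured where these made up at least 50% of its span. A gene's value is the base-weighted mean log2 ratio. The interval arithmetic was tested on simulated data. Coordinates count from 1. The receptor genes, the other lists and the rules were chosen with earlier results of these data known. All 41 genes could be named; those given in more detail were the covered genes, the 2 highest and 2 lowest of each group of classes, and the 3 whose replicates differed most in enriched share. Genes of other lists were the 2 highest and 2 lowest. Genes and steps singled out beyond this were chosen after their values were seen. No test was made, since there is 1 group of 2 ChIP replicates. Chromosomes X and Y were left out.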

Additional observations from a re-analysis of the deposited data

How the results depend on the processing

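In the main setting 10 of the 41 receptor genes were covered, against 17.4% of all genes. Alternatives were a −log10 p of at least 5, no limit on p, and whole segments with their gaps. Others were the 5-kb start window, either replicate, and each replicate left out (12 and 12). Across these the count ran from 9 to 14, while the share of all genes ran from 14.4% to 26.1%. Of the 12 genes covered in the start window, 8 were covered in the main setting. Among genes of at least 50 kb the count was 8 of 35, against 15.4% of all such genes. The count was 4 of 41 with a log2 ratio over 0.5 (against 10.1% of all genes) and 4 of 41 with a covered share of at least 80% (against 13.1%). The median covered share was 0 in the main setting, 21.0% with either replicate, and 0 to 15.7% without replicate 1 or 2, and the mean in its place was 23.8%. The median log2 ratio was -0.33 to -0.29 without replicate 1 or 2, and the mean was -0.19 (-0.90 for all genes). The count of genes above 0 in both replicates was 15 or 16 under its alternatives, while the share of all genes ran from 20.8% to 25.9%. GRIK4 was at 0.05 over both replicates and at -0.05 without replicate 2. In the 5-kb start window 7 genes had the other sign: GRIA2 (0.014), GRIK5 (-0.21), GRIN2C (-0.77), GRIN3B (1.36), GRID1 (0.44), GABRR2 (-1.08) and GLRB (0.22). That window reads other bases, part of them upstream of the gene. No paired analysis was possible because the inputs, which share replicate numbers with the ChIP samples, enter only through the authors' ratio. Unknown depth and long segments limit all values.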
